A study of Mus musculus with 2 samples.

Results

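The globin genes encode the protein chains of hemoglobin. A set of 7 of the 31053 genes in the matrices was taken by symbol. It holds the 4 adult genes Hba-a1, Hba-a2, Hbb-bs and Hbb-bt, and the 3 embryonic genes Hba-x, Hbb-y and Hbb-bh1. They were measured in single cells of a mouse leukemia, in 2 libraries (1 per group). Before injection these cells carried AE9a, a short form of the AML1-ETO fusion that drives acute myeloid leukemia, with GFP, floxed Usp18 and UBCER-Cre. UBCER-Cre is a recombinase that is active wherever the ubiquitin promoter is and only after tamoxifen. Sick recipient mice received oil or tamoxifen, and GFP+ Lin- c-Kit+ spleen cells were sorted 3 days after the first injection. Each library is a pool of 3 mice, no label ties a cell to a mouse, and 8000 cells were targeted per library.

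Before injection the leukemia cells of both libraries carried AE9a, GFP, UBCER-Cre and floxed Usp18. The genotype labels read Usp18f/f for oil and Usp18delta/delta for tamoxifen, whereas the treatment protocol in the same labels gives Usp18+/f and a heterozygous depletion. The groups are therefore named by injection. The Usp18 transcript was higher in the library labelled tamoxifen. It stood at 5.62 CPM (UMIs per 1000000 UMIs of the library, 95% interval 5.06 to 6.22) in the library labelled oil and at 15.4 CPM (14.4 to 16.4) in the library labelled tamoxifen. Reads from the 3′ end need not cover the deleted part, so this value does not measure the deletion. After cells with under 500 genes or over 10% mitochondrial UMIs were left out, 6838 and 6472 cells remained, with a median of 8622.5 and 8209.5 UMIs. Kit, the receptor used in the sort, had a UMI in 65.6% and 68.9% of these cells. Neutrophil, B cell, T and NK cell and endothelial lists summed to between 0.242 and 1.27 CPM, and S100a8, Elane, Trac, Cd4 and Cdh5 were at 0 in both libraries. The libraries shared 14 barcodes. With 1 library per group no test was possible, and intervals cover counting error only.

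Adult hemoglobin joins a pair of alpha chains with a pair of beta chains around heme. The alpha and beta genes lie in separate clusters on different chromosomes. Within each cluster, embryonic genes are used early in development and adult genes later, and red cell precursors make globin RNA in very large amounts as they mature. Red cells broken during tissue preparation also release globin RNA, which can enter droplets with other cells.

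On GRCm38 the alpha genes lie on the plus strand of chromosome 11, Hba-x from 32276400 to 32278116, Hba-a1 from 32283511 to 32284465 and Hba-a2 from 32296489 to 32297298. The beta genes lie on the minus strand of chromosome 7, Hbb-y from 103851749 to 103853216, Hbb-bh1 from 103841637 to 103843164, Hbb-bs from 103826534 to 103828096 and Hbb-bt from 103812524 to 103813996. Each is protein coding with 3 exons. The adult alpha genes are 12023 bases apart and the adult beta genes 12537 bases apart.

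The 250 bases before the RefSeq start (GRCm38.p6) are shown for the genes whose use differed between cells below, and for the embryonic Hbb-y. They read 5′ to 3′ on the strand of the gene, with 4 short motifs in capitals on either strand. These are CACCC, which Klf factors can bind, the CCAAT box, GATAA, which Gata factors can bind, and the TATAA box. The windows are chr11:32296242-32296491 for Hba-a2, chr7:103827929-103828178 for Hbb-bs, chr7:103813924-103814173 for Hbb-bt and chr7:103853208-103853457 for Hbb-y.
Hba-a2: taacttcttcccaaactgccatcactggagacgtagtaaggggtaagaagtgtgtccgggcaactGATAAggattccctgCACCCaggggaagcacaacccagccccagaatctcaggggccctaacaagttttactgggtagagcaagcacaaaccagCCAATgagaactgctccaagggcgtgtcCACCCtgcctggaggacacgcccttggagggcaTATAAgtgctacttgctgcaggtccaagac
Hbb-bs: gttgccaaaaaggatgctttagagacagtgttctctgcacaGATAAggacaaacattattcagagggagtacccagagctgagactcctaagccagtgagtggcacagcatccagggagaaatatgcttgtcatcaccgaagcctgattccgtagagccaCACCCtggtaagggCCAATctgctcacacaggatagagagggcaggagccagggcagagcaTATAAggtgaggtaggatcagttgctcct
Hbb-bt: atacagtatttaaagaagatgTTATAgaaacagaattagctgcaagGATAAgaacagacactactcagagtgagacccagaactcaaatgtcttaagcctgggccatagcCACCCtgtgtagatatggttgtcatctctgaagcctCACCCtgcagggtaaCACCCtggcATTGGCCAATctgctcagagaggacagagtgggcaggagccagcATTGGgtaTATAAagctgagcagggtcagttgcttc
Hbb-y: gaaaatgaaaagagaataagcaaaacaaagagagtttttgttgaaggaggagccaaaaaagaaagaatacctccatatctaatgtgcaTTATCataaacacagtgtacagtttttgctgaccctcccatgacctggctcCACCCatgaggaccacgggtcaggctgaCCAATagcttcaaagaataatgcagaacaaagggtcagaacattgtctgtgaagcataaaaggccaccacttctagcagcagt
The Hba-a1 window was identical to that of Hba-a2 over the 247 aligned bases. Those of Hbb-bs and Hbb-bt agreed at 175 of 244 aligned bases (71.7%). Hbb-bt held 3 copies of CACCC and 3 of the CCAAT box where Hbb-bs held 1 of each. No capital group overlaps another. Of 32851 promoter windows of this length, 52.0% held the letters CACCC, 33.8% the CCAAT box, 22.6% the letters GATAA and 22.8% the TATAA box, so such a match is common and is only a description of the letters.

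The close copies also set how far each gene can be told from its neighbour. Over aligned bases, the Hba-a1 and Hba-a2 transcripts were 99.8% identical and the Hbb-bs and Hbb-bt transcripts 92.7%. Of all 90-base windows in the last 400 bases, where 3′ reads fall, 71.1% of those of Hba-a1 and 65.9% of those of Hba-a2 also occurred in another globin transcript. For Hbb-bs and Hbb-bt the shares were 48.9% and 48.6%. No window of Hba-x, Hbb-y or Hbb-bh1 was shared. The split between Hba-a1 and Hba-a2 is therefore uncertain, and the summed adult alpha and adult beta levels are given beside the single genes. Reads that fit several genes equally well are not counted by the mapping tool, so the sums lack them too. The shared part is larger for the alpha genes, so alpha levels and alpha shares may be too low beside beta. The size of this loss was not measured.

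Adult alpha globin was higher in the library labelled tamoxifen, whereas adult beta globin was at nearly the same level in both. Hba-a1 stood at 2174 CPM (2163 to 2186) with oil and 3263 CPM (3248 to 3277) with tamoxifen, a log2 ratio of 0.59 (0.58 to 0.60). For Hba-a2 the levels were 520.3 CPM (514.8 to 525.8) and 915.5 CPM (907.9 to 923.2), a log2 ratio of 0.82 (0.80 to 0.83). Both alpha genes were thus higher with tamoxifen by more than counting error.

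Among the beta genes, Hbb-bs stood at 2309 CPM (2298 to 2321) and 2448 CPM (2436 to 2460), a log2 ratio of 0.084 (0.074 to 0.095). Hbb-bt stood at 1042 CPM (1034 to 1049) and 1033 CPM (1025 to 1042), and its log2 ratio of -0.011 (-0.027 to 0.0043) could not be told from 0 at this depth. Its sign changed with the scaling, up to 0.069 with a total free of mitochondrial and ribosomal protein genes. The summed alpha level went from 2695 to 4178 CPM, 1.55-fold higher with tamoxifen (log2 0.63, 0.62 to 0.64), and the summed beta level from 3351 to 3481 CPM (log2 0.055, 0.047 to 0.064). All 7 genes together made up 6046 and 7660 CPM, a log2 ratio of 0.34.

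None of the 4 adult genes was 2-fold apart between the libraries, against 0.475% of 10527 genes that were 2-fold higher and 0.142% that were 2-fold lower with tamoxifen. Both alpha genes were at least 1.5-fold higher, as were 2.09% of all genes, and Hba-a1 at 1.5005-fold lay on that limit. Hba-a2 stood at percentile 99.2 and Hbb-bt at percentile 59.6 of all ratios, whose median was -0.063. In a library of pooled cells, more cells that make a transcript and more transcript per cell cannot be told apart from the sum alone. The alpha share of adult globin UMIs was 44.6% (44.4 to 44.7) with oil and 54.5% (54.4 to 54.7) with tamoxifen, a difference of 9.97 percentage points (9.76 to 10.2). In the 673 and 771 cells that passed a stricter filter (1000 or more genes, no more than 5% mitochondrial UMIs), that difference was 2.55 points, and the beta log2 ratio was 0.68 beside an alpha log2 ratio of 0.82. Without the 1% of cells with the most globin UMIs the beta log2 ratio was -0.077, and with equal weight for every cell it was -0.030.

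**Figure D1:**
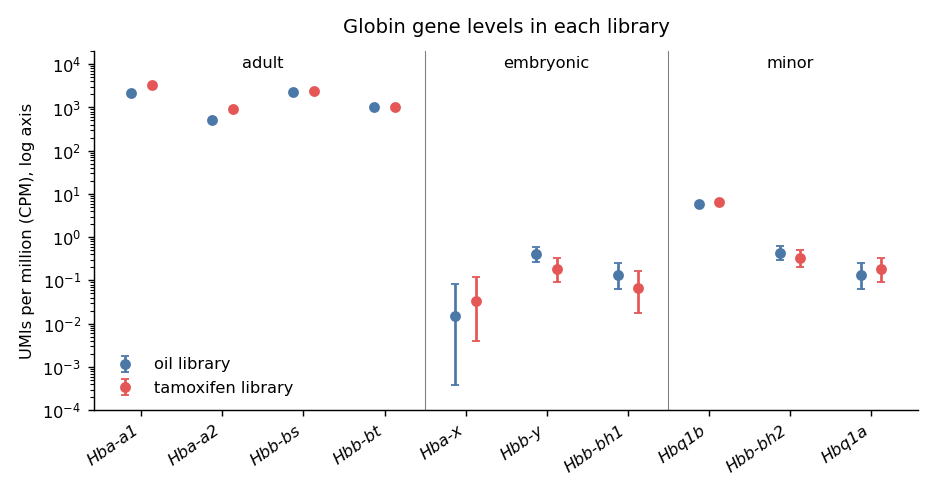
CPM of each globin gene (log axis) in the library labelled oil and the library labelled tamoxifen, with 95% Poisson intervals as bars. The 4 adult genes lie between 520.3 and 3263 CPM, the 3 embryonic genes at 0.409 CPM or below, and the minor globin Hbq1b near 6 CPM.

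The embryonic genes were close to the limit of detection. Hbb-y, which encodes the embryonic epsilon-type beta chain, had 27 UMIs with oil and 11 with tamoxifen, that is 0.409 and 0.181 CPM. Hbb-bh1, an embryonic beta-like gene, had 9 and 4 UMIs. Hba-x, the embryonic zeta chain, had 1 and 2 UMIs and is at or under the floor of 3 counts in both libraries. The embryonic sum was 37 and 17 UMIs, or 92.7 and 36.6 per 1000000 globin UMIs, and its log2 ratio was -0.999 (-1.92 to -0.13). It was -0.78 (-1.76 to 0.14) without the 6% of cells with the top Scrublet scores and 2.70 (-0.26 to 8.20) under a stricter cell filter of 1000 or more genes and no more than 5% mitochondrial UMIs, so neither interval excluded 0.

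These UMIs came from 18 cells with oil and 12 with tamoxifen. Each of the 30 cells also had adult globin UMIs, with a median of 47 and 52.5, against 11 and 10 in all cells of those libraries. The cells' own depths, with medians of 10062 and 8129.5 UMIs, were near those of all cells. No cell had both Hbb-y and Hbb-bh1. The most Hbb-y UMIs in a cell were 7 with oil and 5 with tamoxifen, so a small number of cells gave much of the embryonic count. The 9 oil cells with 2 or more embryonic UMIs held 28 of the 37.

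Among the minor globins, Hbq1b, a theta-type gene of the alpha cluster, had 391 and 395 UMIs (5.92 and 6.51 CPM) and was found in 4.24% and 4.50% of cells. Hbb-bh2 had 29 and 20 UMIs and Hbq1a 9 and 11. These genes lie in the same clusters as the adult genes and were all below 7 CPM. Hbb-bh0 was not analysed here.

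Adult globin UMIs were found in most cells, but the larger part of these UMIs sat in a small part of the cells. An adult globin UMI was present in 91.9% of cells with oil (91.2 to 92.5) and 91.7% with tamoxifen (91.1 to 92.4). At 3000 UMIs per cell, after 508 and 345 shallower cells were left out, the shares were 81.5% and 81.8%, a difference of 0.317 points (-1.04 to 1.68). Under the stricter cell filter they were 83.9% and 77.6%, a difference of -6.36 points (-10.7 to -1.91) in the other direction. The median cell held 11 and 10 adult globin UMIs, the mean cell 58.4 and 71.8, and the highest cell 1752 and 2543. The 443 richest cells with oil (6.48%) and the 336 richest with tamoxifen (5.19%) held 50% of the adult globin UMIs of their library. Cells with 100 or more made up 15.9% and 17.0% of cells and held 74.5% and 80.6% of the UMIs. In the richest cell by share, adult globin was 29.1% of all UMIs with oil and 34.9% with tamoxifen.

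**Figure D2:**
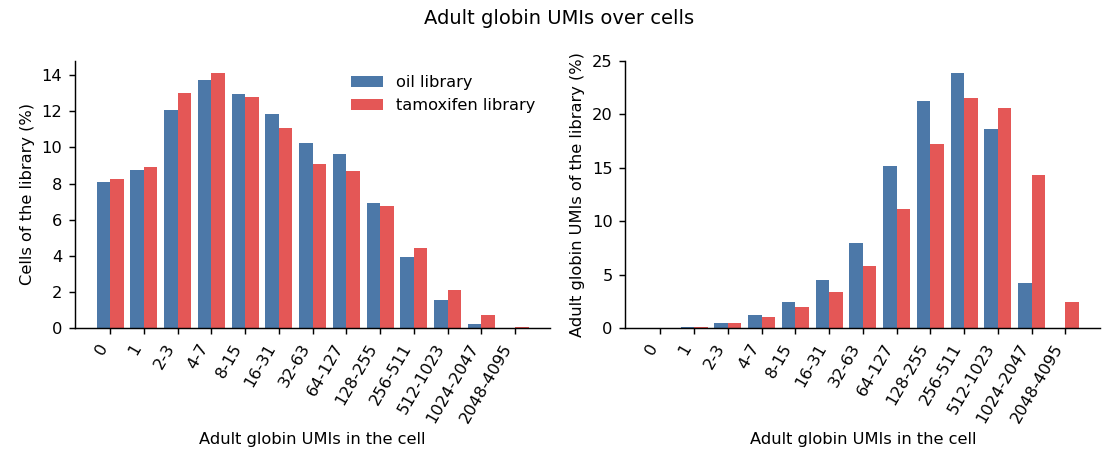
Cells (left, % of the library) and adult globin UMIs (right, % of the library) by the number of adult globin UMIs in the cell, for both libraries. The commonest class of cells has 4 to 7 UMIs, while the classes of 64 UMIs or more hold most of the UMIs, and those of 1024 or more hold more in the library labelled tamoxifen.

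All cells belonged to 1 sorted population, so no cell type that should lack globin was at hand to give the level of free RNA. The study describes a lysis of red cells in its spleen preparations for cytometry. The spread was instead set against a uniform level, the library mean. The richest cells largely set that mean, so this comparison does not measure free RNA. With every cell at the mean globin share of its library, 0.0111% of oil cells and 0.00139% of tamoxifen cells would have had no adult globin UMI by Poisson counting. The measured shares were 8.10% and 8.25%, from 554 and 534 cells, whose median depths were 4429 and 4588 UMIs. Among cells of 10000 or more UMIs, 61 of 2868 and 21 of 2449 had none, and 313 and 168 had at most 2. In the same depth range 536 and 517 cells had 100 or more. Adult globin thus differed between deep cells by far more than their depth did. These values limit a uniform level to that of the poorest cells, and the part of free RNA below it was not tested.

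The mean number of adult globin UMIs per cell went from 27.0 in the shallowest 10% of oil cells to 81.9 in the deepest, and from 36.1 to 112.8 with tamoxifen. Globin as a share of all UMIs went the other way, from 12172 to 3835 CPM with oil and from 13424 to 5377 CPM with tamoxifen. The alpha share of adult globin UMIs was also lower in the deepest 10% than in the shallowest. It was 35.8% against 53.3% with oil, and 49.7% against 63.7% with tamoxifen. Depth moved with the globin level and with the alpha share, and its part in the levels and in the alpha shares given below and above was not tested.

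The number of cells with alpha or beta globin also differed. Alpha globin was found in 86.0% and 87.2% of cells, and beta globin in 74.0% and 68.2%. At 3000 UMIs the shares were 70.0% and 73.8% for alpha, and 59.1% and 52.7% for beta. Hba-a1 was the most widely found gene, in 84.5% and 85.2% of cells. Hba-a2 was found in 46.9% and 52.1%, Hbb-bs in 53.2% and 49.9%, and Hbb-bt in 58.4% and 50.4%. Cells with both chains numbered 4656 and 4119, cells with alpha alone 1224 and 1527, and cells with beta alone 404 and 292. Among cells with 20 or more adult globin UMIs, 117 with oil and 195 with tamoxifen had no beta UMI at all, whereas 16 and 4 had no alpha UMI.

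Cells differed in the mix of globin genes as well as in the amount. Among 2749 oil cells with 20 or more adult globin UMIs, the alpha share had a median of 45.5% and an SD of 29.5 points. Counting alone at 1 common share would give an SD of 6.61 points. In 2514 tamoxifen cells the median was 61.3% and the SD 28.8 points, against 6.41 from counting. Cells above 90% alpha made up 12.6% with oil and 23.5% with tamoxifen, and cells below 10% made up 11.4% and 4.30%. The shift between the libraries thus appeared at both ends of the distribution.

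The adult beta genes were used unevenly by single cells. Among 1857 oil cells with 20 or more beta UMIs, Hbb-bt was under 10% of beta UMIs in 642 cells (34.6%) and over 90% in 390 cells (21.002%). Only 8.72% lay between 40% and 60%, and the SD of 38.0 points stood against 6.20 from counting. With tamoxifen, 505 of 1436 cells (35.2%) were under 10% and 310 (21.6%) over 90%, and the SD was 38.3 against 6.02. The libraries gave nearly the same U-shaped distribution, with most such cells dominated by 1 beta gene. Cells with 1 gene at over 90% made up 55.6% with oil (53.3 to 57.9) and 56.8% with tamoxifen (54.1 to 59.3). With a minimum of 100 beta UMIs they were 49.7% and 49.1%, and in cells of 10000 or more UMIs 58.6% and 59.4%.

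The adult alpha pair showed dominance by 1 gene at 1 end only. Among cells with 20 or more alpha UMIs, Hba-a2 had a median share of 14.3% and 14.7%. It was under 10% of alpha UMIs in 581 of 1780 oil cells (32.6%) and 659 of 1982 tamoxifen cells (33.2%), and above 90% in none. The SD was 9.99 and 10.6 points against 5.95 and 5.78 from counting. The alpha transcripts are 99.8% identical over aligned bases, so this split is uncertain. Over cells at 3000 UMIs, log counts of Hba-a1 and Hba-a2 correlated with a Pearson r of 0.78 in 6330 oil cells and 0.81 in 6127 tamoxifen cells. For Hbb-bs and Hbb-bt r was 0.39 and 0.44, below the 0.63 and 0.66 of summed alpha with summed beta. Cells of a library share its depth range and its free RNA, so these values are descriptions.

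**Figure D3:**
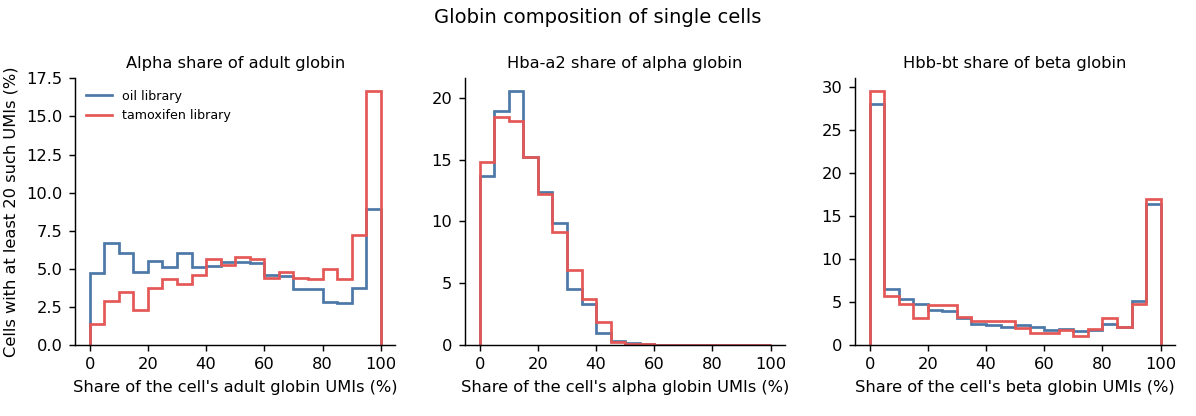
Share of cells (%) by the alpha share of adult globin UMIs, the Hba-a2 share of alpha UMIs and the Hbb-bt share of beta UMIs, among cells with at least 20 UMIs of the kind, in bins of 5 points. The alpha share is broad and moved to the right with tamoxifen, the Hba-a2 share has 1 peak with a median of 14.3% and 14.7%, and the Hbb-bt share has peaks at both ends in both libraries.

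The beta gene in use went with the amount of beta RNA. Cells dominated by Hbb-bs had a median of 85.5 beta UMIs with oil and 92 with tamoxifen, against 37.5 and 38 in cells dominated by Hbb-bt. Cells over 90% Hbb-bt made up 35.7% of oil cells with 20 to 49 beta UMIs and 3.62% of those with 200 or more, and 37.4% and 4.53% with tamoxifen. Cells under 10% made up 25.2% and 44.9% with oil, and 25.9% and 40.8% with tamoxifen. The total depths of the cells dominated by Hbb-bs, 11197 and 10951 UMIs at the median, were also above the 9040.5 and 9391 of the cells dominated by Hbb-bt. Alpha made up 26.7% and 41.8% of adult globin in the cells dominated by Hbb-bs, and 53.4% and 60.6% in those dominated by Hbb-bt.

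Other red cell genes differed little between these cells. The erythroid list summed to 8749 CPM, counted without globins, in oil cells dominated by Hbb-bs and 9033 in oil cells dominated by Hbb-bt, and to 8837 and 8736 with tamoxifen. Klf1, the factor that activates adult beta globin, stood at 91.3 and 97.8 CPM with oil, and at 89.98 and 103.7 CPM with tamoxifen, with overlapping intervals in both libraries. Bcl11a, a repressor of embryonic and fetal-type globin, stood at 247.1 and 243.1 with oil, and at 246.0 and 236.1 with tamoxifen. The sum of the mast cell list was higher in cells dominated by Hbb-bt, at 6899 against 5127 CPM with oil and 5792 against 4516 with tamoxifen. Over all oil cells Srgn alone gave 3761 of the 7214 CPM of this list. Its member Kit was higher too, at 140.1 against 90.3 CPM with oil and 152.6 against 101.2 with tamoxifen. Cpa3 stood at 136.0 against 134.2 CPM and at 96.7 against 79.3 CPM, with overlapping intervals in both libraries. Of 7198 genes, 13 were at least 2-fold higher and 3 at least 2-fold lower in the cells dominated by Hbb-bt in both libraries.

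Globin-rich cells carried more RNA of late red cell genes, whereas genes of the mast cell list went in different directions. Mcpt1 and Mcpt2 of that list correlated with summed globin over cells (mean Pearson r 0.33 and 0.34), while Kit and Cpa3 below were lower in the richest class. Cells were put in 6 classes by their adult globin UMIs at 3000 UMIs, from 0 (1172 oil and 1115 tamoxifen cells) to 100 or more (336 and 431 cells). Alas2, which starts heme synthesis in red cells, went from 0.431 to 156.5 CPM with oil and from 0.520 to 179.6 CPM with tamoxifen. Slc4a1, the red cell anion exchanger, went from 0.0862 to 80.1 CPM and from 0.104 to 52.4 CPM. Both genes were highest in the class richest in globin in both libraries.

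Early genes were less steep. Gata1, a factor that both red cell and mast cell lineages need, went from 84.4 to 118.7 CPM and from 80.6 to 128.6 CPM, and Klf1 from 66.8 to 119.5 and from 53.9 to 124.2 CPM. Car1, an early erythroid carbonic anhydrase, went down from 1596 to 406.0 CPM with oil and from 1164 to 409.2 CPM with tamoxifen. Kit was 240.2 CPM in cells without globin and 100.8 CPM in the richest class with oil, and 381.2 and 139.4 CPM with tamoxifen. Cpa3, a mast cell protease, was 673.8 and 82.5 CPM with oil and 671.5 and 72.6 CPM with tamoxifen. Gata2, a factor of mast cells and early progenitors, went the other way, from 259.2 to 419.8 CPM with oil and from 236.4 to 338.9 CPM with tamoxifen. The whole mast cell list summed to 8217 CPM in cells without globin and 8021 CPM in the richest class with oil, with 6452 to 7093 CPM in the classes between, and to 8940 and 6336 CPM with tamoxifen. Cells without a globin UMI still summed to 6298 and 5223 CPM over the erythroid list, against 10613 and 10157 CPM in the richest class. The macrophage list went from 7.41 to 21.9 CPM and from 7.69 to 46.0 CPM, and its part in the globin level was not tested.

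The mix of globins moved along the same classes. With oil the alpha share was 67.4% (65.5 to 69.3) in cells with no globin UMI at 3000 UMIs, whose globin was counted at their full depth, and 44.9% (44.6 to 45.1) in the richest class. With tamoxifen it was 76.3% (74.4 to 78.2) and 51.4% (51.2 to 51.6). The Hbb-bt share of beta was 57.4% and 29.8% with oil, and 54.9% and 27.9% with tamoxifen. The Hba-a2 share of alpha was 10.9% and 27.4%, and 12.1% and 29.5%. Globin RNA in the classes poorest in globin thus had another mix than the globin RNA that made up most of the library, in which the alpha share was 44.6% and 54.5%. This holds for classes cut on globin itself, and the globin-poor clusters given below went the other way. The part of free RNA in these shares was not tested.

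**Figure D4:**
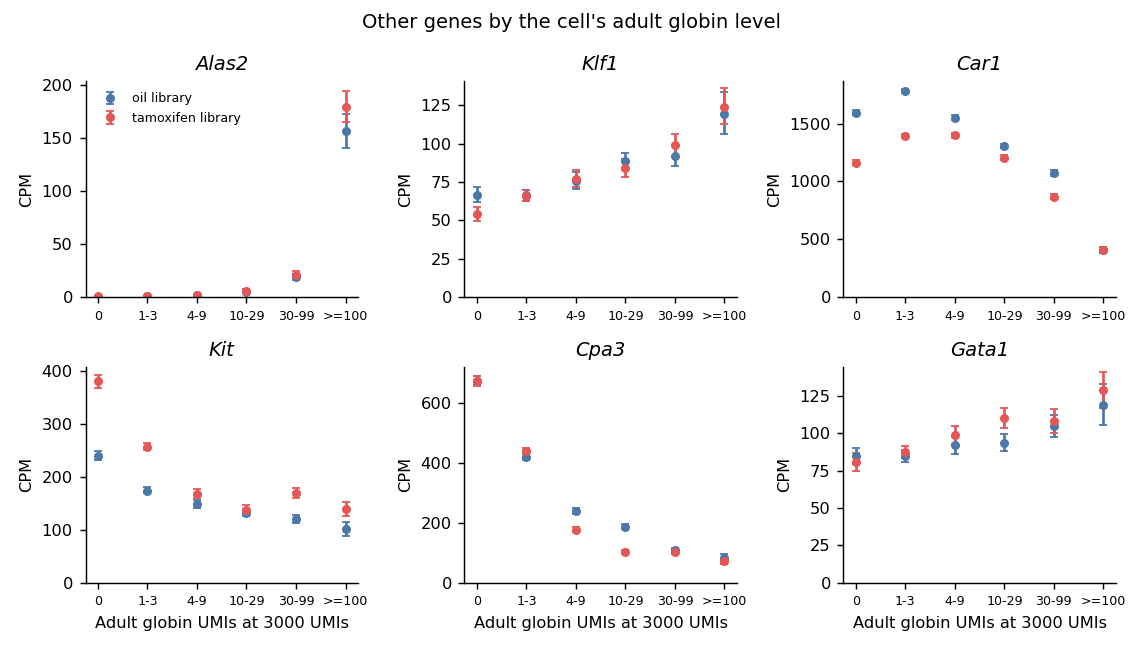
CPM of 6 genes in cells grouped by their adult globin UMIs at 3000 UMIs, for both libraries, with 95% Poisson intervals as bars. Alas2 and Klf1 are highest in the class of 100 or more, where Alas2 reaches 156.5 and 179.6 CPM, while Car1, Kit and Cpa3 are lowest or near their lowest there and Gata1 differs less.

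Of 9011 genes compared over cells at 3000 UMIs, the 10 most like summed globin had a mean Pearson r over the libraries from 0.32 to 0.47. Csf2rb2 and Csf2rb, beta subunits of cytokine receptors, came first with 0.47 and 0.46. Nrip3 (0.39), Gm15915 (0.34), the mast cell protease Mcpt2 (0.34), Cd24a (0.34), the heme catabolism enzyme Blvrb (0.34), the porphyrin transporter Tmem14c (0.33), Mcpt1 (0.33) and Alas2 (0.32) followed. In all, 45 genes had an r of 0.2 or more in both libraries. The list holds both red cell and mast cell genes.

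Of those 10 genes, 4 were higher and 6 lower in the library labelled tamoxifen, in a setting where the median gene was also lower (log2 -0.063). Csf2rb2 had a log2 ratio of 0.036 and Csf2rb of 0.061, Mcpt1 and Mcpt2 were lower with tamoxifen at -0.82 and -0.57, and Alas2 was higher at 0.56 (0.41 to 0.70). Of 45 erythroid genes with at least 100 UMIs, 16 were higher and 29 lower with tamoxifen, with a median log2 ratio of -0.059, near the -0.063 of all genes. The interval lay above 0 for 11 of the 45 and below 0 for 20, against 19.3% and 39.8% of all 10527 genes. Rhag, a red cell membrane protein, was the only 1 of the 45 that was 2-fold higher, at 33.1 and 69.6 CPM, and none was 2-fold lower. Over all genes these shares were 0.475% and 0.142%. Fam178b (0.90) and Bpgm (0.50), a red cell glycolytic enzyme, were next to Alas2 among the higher genes. Car1 (-0.30), Alad (-0.29), an enzyme of heme synthesis, and Icam4 (-0.26) were among the lower ones. The late red cell list had a median of 0.12 over 8 genes, and the mast cell list one of -0.26 over 13 genes.

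Cells were also clustered without the globin genes, which gave 10 clusters. Adult globin was found in all of them, from 989.3 CPM in cluster 6 to 18532 CPM in cluster 4. Cluster 4, led by Tac2, Isg15 and Cldn13, and cluster 0 at 16530 CPM, led by S100a6, Klf2 and mast cell proteases, were the richest by CPM. Cluster 0 was shallow, with median depths of 4625.5 and 4699 UMIs, and its median cell held 18 and 30 adult globin UMIs. Cluster 2, at 5179 CPM, had nearly the same medians of 19 and 27 adult globin UMIs at depths of 16223.5 and 16909 UMIs. The part of depth in these CPM values was not tested. Clusters 6 and 3, the latter at 1301 CPM and led by Cx3cr1 and Cpa3, were the poorest. At 3000 UMIs a globin UMI was found in 55.1% and 60.7% of the cells of cluster 3, against 94.5% and 93.4% in cluster 4, and the median depths were 5601 and 5981.5 UMIs in cluster 3 and 8493 and 7981 in cluster 4. Alpha was 27.9% of adult globin in cluster 3 and 31.4% in cluster 6 with oil, and 45.7% and 46.1% with tamoxifen, in each case below the share of the whole library. The class without a globin UMI at 3000 UMIs was above it, at 67.4% and 76.3%. Which cluster was richest depended on the settings, with 38592 CPM in the richest of 15 clusters at resolution 1.0, which shared 0 cells with cluster 4.

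The alpha log2 ratio was above 0, with its interval, in 9 of the 10 clusters, from 0.42 in cluster 8 to 1.11 in cluster 5. The exception was cluster 9, at -1.18, which held 12 oil cells and 198 tamoxifen cells. The beta log2 ratio was above 0 in 5 clusters and below 0 in 5. In all 10 clusters the alpha ratio was above the beta ratio. Cluster 5 held 59 oil cells and 969 tamoxifen cells, so its values compare unequal numbers. Hbb-bt under 10% and over 90% of beta both occurred in each of clusters 0 to 7 and 9 in both libraries. In cluster 0 they were 22.5% and 28.5% of oil cells with 20 or more beta UMIs, and in cluster 2 38.9% and 18.7%.

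**Figure D5:**
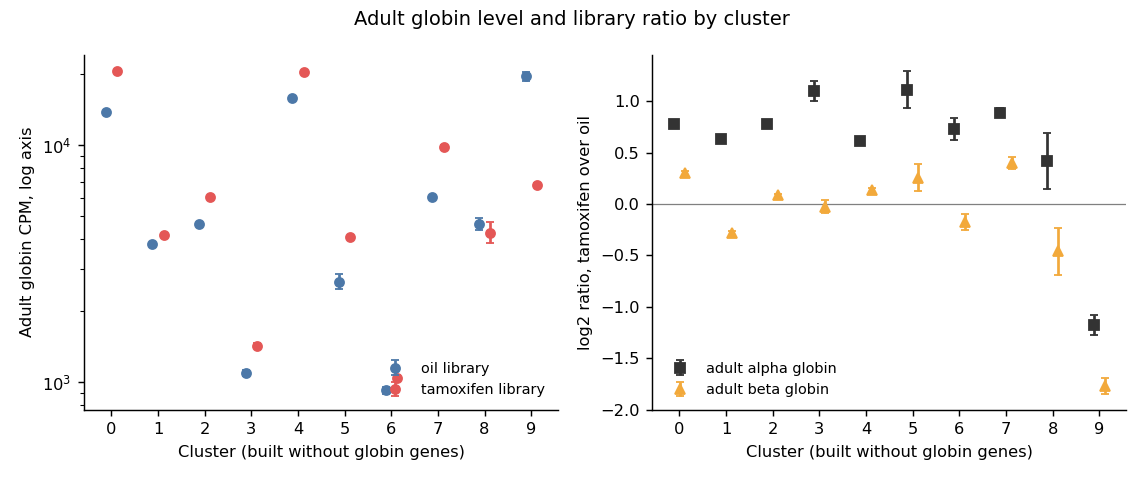
Adult globin CPM (left, log axis) in each of 10 clusters for both libraries, and the log2 ratio of tamoxifen over oil for adult alpha and adult beta globin in each cluster (right), with 95% counting intervals as bars. Alpha lies above beta in every cluster and above 0 in all but cluster 9, whereas beta lies on both sides of 0.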

How the data were processed

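UMI counts of 3′ reads were deposited as 1 matrix per library. Per the labels and the methods, the authors mapped Chromium V3 reads to mm10 with Cell Ranger 3.0.2 (version from the file header), and no normalization had been applied. Reads that fit several genes equally well are not counted by that tool in its default use. Members and gene lists were chosen with earlier results of these data known, and the rule for named genes took the 7 globins, minor globins, the erythroid list and the 10 genes most correlated with summed globin. Other genes named are the targeted and sorted genes, members of the other marker lists and leading genes of clusters, or were chosen after their values were seen. The result for 1 gene of the erythroid list is not reported here.

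Kept cells had 500 or more genes and no more than 10% mitochondrial UMIs, leaving 66045700 and 60661486 UMIs. Counts were summed per library and scaled to CPM with exact Poisson intervals. Log2 ratios have exact conditional binomial intervals, shares Clopper-Pearson intervals and differences of shares Newcombe intervals, all at 95%. PCR and capture error are not covered. Ratios were taken for 10527 genes with at least 100 UMIs. Cells were thinned to 3000 UMIs by 1 random draw. Correlations used log1p counts of genes with at least 500 UMIs. Clusters were made with Seurat from 2000 variable features, 20 principal components and a resolution of 0.5, without globins, genes 1.5-fold apart between libraries, mitochondrial genes and sex chromosome genes. Scrublet marked 5 and 0 cells, which is too few to have worked, so no doublets were removed. In an alternative the 6% of highest score were dropped. Steps were tested on simulated data. Positions are from GENCODE M21, and promoter windows, found for 6 of the 7 genes (not Hbb-bh1), from RefSeq. Alternatives changed the cell filter, scaling, weighting, thinning depth, count minimum and cluster settings. Tools were Seurat 5.3.0, edgeR 4.0.16 (TMM factors) and DESeq2 1.42.0 (size factors) in R 4.3.3, and scanpy 1.11.5 (Scrublet), scipy 1.17.1 and numpy 2.4.6 in Python 3.11.15.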

Additional observations from a re-analysis of the deposited data

Results flagged for a closer look

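Globin RNA was also present in the 936 oil and 839 tamoxifen barcodes that the cell filter left out, which no comparison above used. Adult globin stood at 5990 CPM (5916 to 6065) in the former and 6220 CPM (6146 to 6294) in the latter, above the limit that a count of 0 allows. The kept cells had 6045 and 7660 CPM. Median depths of the left-out barcodes were 4107 and 4902 UMIs. Their log2 ratio of tamoxifen over oil was 0.054 for adult globin, 0.34 for alpha and -0.28 for beta.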

How the results depend on the processing

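No paired analysis was possible because the groups hold 1 library each, and no replicate could be left out. The log2 ratios of all globins, adult alpha and adult beta were 0.32, 0.61 and 0.036 with all barcodes, 0.32, 0.61 and 0.024 with up to 20% mitochondrial UMIs, and 0.75, 0.82 and 0.68 with 1000 or more genes and up to 5% mitochondrial UMIs. They were 0.38, 0.68 and 0.098 with TMM factors, 0.38, 0.67 and 0.094 with median-ratio factors, and 0.42, 0.71 and 0.14 with a total free of mitochondrial and ribosomal protein genes. With equal weight for every cell they were 0.25, 0.50 and -0.030, and without the 1% of cells with the most globin 0.28, 0.61 and -0.077, so that beta changed sign in both settings, as did Hbb-bs at -0.056 in the latter. When the 6% with the top Scrublet scores were dropped, beta was 0.065. The embryonic ratio was 2.70 under the strictest cell filter, and its interval included 0 there and without the top Scrublet scores (-0.78). The difference in the share of cells with an adult globin UMI was -1.14 points at 1000 UMIs and -6.36 (-10.7 to -1.91) under that filter. The difference in alpha share was 2.55 points under that filter and 11.9 without the globin-richest cells. The erythroid median was 0.022 without mitochondrial and ribosomal protein genes in the total. Genes 2-fold higher numbered 199 with a minimum of 20 UMIs and 22 with 500, and genes 2-fold lower 99 and 7. The richest cluster had 16662 CPM at resolution 0.3, 38592 at 1.0 and 16988 with 30 components. The causes were not tested. Of 75 values of single genes and of beta gene dominance, 37 stayed within the counting interval, 37 left it in the same direction or from an interval that held 0, and 1 changed sign. The minimums of 50 and 100 beta UMIs, the deep cells and the Scrublet setting for dominance were chosen after seeing the data. Embryonic genes rest on few UMIs, and their ratios are imprecise at this depth.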

Other observations

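The genes that were at least 2-fold apart in both libraries between cells dominated by Hbb-bt and cells dominated by Hbb-bs were chosen after their values were seen. Higher in the cells dominated by Hbb-bt were, with log2 ratios for oil and tamoxifen, S100a6 (1.53 and 1.56), Klf2 (1.24 and 1.63), Fxyd5 (1.34 and 1.93) and Ahnak (1.12 and 1.11), which are also among the 10 leading genes of cluster 0. Rgs10 (-1.24 and -1.06), Ppy (-1.19 and -1.01) and Map7 (-1.07 and -1.34) were lower. Mcpt1, a mast cell protease, stood at 253.6 and 556.6 CPM in oil cells dominated by Hbb-bs and by Hbb-bt, and at 204.4 and 225.8 CPM in such tamoxifen cells, and this difference between the libraries was not tested.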
